A study of Mus musculus with 78 samples.

Results

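The comparison is between the lungs of mice kept awake for 9 h and the lungs of mice kept awake for 6 h, both counted from lights on. Its members were chosen by their labels alone. All arrays labelled 9 h SD (sleep deprivation, n = 9) and all labelled 6 h SD (n = 9) were taken, which gave 18 of the 78 lung arrays of the series. The mice were male C57BL/6J animals of about 10 weeks, held on 12 h of light and 12 h of dark, fed only in the dark period, and kept awake by gentle handling. All were wild type and received no agent. Whole lung was taken, so the RNA of every cell type of the organ was pooled within a mouse, and fewer cells of a type cannot be told apart from less RNA per cell. Mice left to sleep undisturbed and killed at the same hours (9 h SS, n = 9, and 6 h SS, n = 7) were used to set the step of the deprived mice beside the step of sleeping mice. Like the other groups of the series, they also entered the estimate of the spread on which each SE and adjusted p rests. In the text the step is the mean log2 intensity after 9 h minus the mean after 6 h, so that a positive step means more transcript after the longer deprivation, and a step of 1 is a 2-fold change of intensity. Because the mice of the 2 groups were killed at different clock hours, 3 h of further waking and 3 h of further clock time cannot be told apart within this comparison.

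The mammalian circadian clock is a feedback loop of transcription. Arntl (Bmal1) pairs with Clock or its paralogue Npas2 and activates genes through the E-box, among them the Per and Cry genes and Ciart, whose proteins return to repress that same pair. The Rev-erb receptors (Nr1d1, Nr1d2) repress and the Ror receptors activate Arntl and Npas2 through a shared element, and the factors Dbp, Tef and Hlf activate, and Nfil3 represses, genes with a D-box. The lung keeps such a clock in its airway and alveolar cells, and the light phase is the rest phase of the mouse.

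The array numbers in the labels fall into 4 runs in which the order of conditions starts again. Runs 1 and 3 were taken here as a first set and runs 2 and 4 as a second, a grouping that no label names. In the first set arrays 1 to 5 (9 h SD) stand against arrays 47 to 51 (6 h SD), and in the second set arrays 20 to 23 stand against arrays 71 to 74. No run holds arrays of both hours, so run and hour cannot be told apart either, and the sleeping mice of each hour lie in the same runs as the deprived mice of that hour. If the order of conditions is laid along the array numbers, 15 arrays of the series would fall on a neighbouring condition and array 81 on none. No label gives such a layout, and each of the 15 stands first or last in its label's block of numbers. Of these 16 arrays, 3 belong to the comparison: array 20 (9 h SD, number falling on 12 h SS), array 51 (6 h SD, falling on baseline) and array 74 (6 h SD, falling on 3 h SS). Over 33 clock genes, 13 of the other 15 arrays were nearest to the mean of their own group, and 0 of these 3 were. Each of the 3 was nearest to the condition on which its number would fall in that layout. The distances were 0.22 to 12 h SS and 0.35 to its own group for array 20. They were 0.27 to baseline and 0.84 for array 51, and 0.29 to 3 h SS and 0.54 for array 74. Labels were used as given, and the fit was repeated without the 16 arrays, which leaves 8 mice after 9 h and 7 after 6 h. Of 68 genes whose steps are described below and passed with all arrays, 38 also passed in that fit and 30 did not, and the 30 are named as such where they are described. The lung markers Sftpc (13.08 to 13.37 log2 intensity), Ager (11.93 to 12.21), Scgb1a1 (11.39 to 13.19) and Cdh5 (12.00 to 12.32) stood far above the array medians of 6.64 to 6.73 in all 18 arrays.

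Between 9 h and 6 h of deprivation 963 of 18820 genes differed at an adjusted p under 0.01 (limma, Benjamini-Hochberg over 35556 probe sets). After 9 h 297 genes were higher (1.58% of those tested) and 667 were lower (3.54%), with 1 gene in both counts through different probe sets. Once the 16 arrays were left out 209 genes were higher (1.11%) and 480 lower (2.55%), of which 161 and 379 were also called with all arrays. Most steps were small. The median size among the called genes was 0.279 on the log2 scale, 73 had a step over 0.5 in size and 8 a step over 1. The counts rested mostly on the first set, which alone gave 923 genes higher and 1393 lower, against 0 and 1 in the second set alone (limma, with 2637 probe sets at an unadjusted p under 0.05). Of the 963 genes 936 had a step of the same sign in both sets, but they had been chosen on both sets together, which favours that outcome. Over all 35556 probe sets the steps of the 2 sets had a Pearson correlation of 0.32, and of 0.11 without the 16 arrays. Leaving out array 2 alone left 84 genes higher and 225 lower, and leaving out array 71 gave 457 and 853.

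In the activating arm of the clock, Arntl and Npas2 were lower after the longer deprivation, and with all arrays theirs were the largest falls among named genes. Arntl had between 5.58 and 6.50 log2 intensity in the 9 h mice, with a median of 6.41, and between 7.32 and 9.25 in the 6 h mice, with a median of 7.90. The lowest 6 h mouse lay above the highest 9 h mouse. The mean was 6.29 ± 0.28 after 9 h and 8.04 ± 0.61 after 6 h (SD, n = 9 each), a step of -1.75 (SE 0.29, adjusted p = 0.000162), or 3.37-fold lower. The step was -1.38 without the 16 arrays (SE 0.12, adjusted p = 5.06e-12), since the 2 highest 6 h values, 9.25 and 8.80, belonged to arrays 51 and 74. Npas2, which can stand in for Clock beside Arntl, had between 6.41 and 6.85 after 9 h, with a median of 6.65, and between 7.56 and 9.83 after 6 h, with a median of 7.89, again without overlap. Its step was -1.57 (SE 0.31, adjusted p = 0.000967) and -1.17 without the 16 arrays (SE 0.09, adjusted p = 5.56e-14). Clock itself spanned 10.06 to 10.24 after 9 h and 10.27 to 10.54 after 6 h. Its step of -0.24 (SE 0.07) missed the threshold in both fits (adjusted p = 0.0144, and 0.0114 without the 16 arrays). Rora, an activator of Arntl, was higher after 9 h (10.12 ± 0.08) than after 6 h (9.86 ± 0.12), a step of 0.26 (SE 0.06, adjusted p = 0.00284). Of the 6 activators and Ror partners measured, Arntl and Npas2 fell, Rora rose, and Clock, Arntl2 and Rorb did not pass. Among all genes 1.58% were higher and 3.54% lower.

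Among the genes that repress this arm, Per2 had between 9.18 and 9.99 after 9 h (median 9.41) and between 6.93 and 9.02 after 6 h (median 8.61). The groups did not overlap, and the 2 lowest 6 h values, 6.93 and 7.28, were those of arrays 51 and 74. The step was 1.11 (SE 0.25, adjusted p = 0.00294), and 0.69 without the 16 arrays (SE 0.10, adjusted p = 3.5e-05). Per3 had between 9.65 and 10.13 after 9 h (median 9.71) and between 7.66 and 9.23 after 6 h (median 8.91), with a step of 1.01 (SE 0.21, adjusted p = 0.00144) and of 0.72 without the 16 arrays (SE 0.07, adjusted p = 1.91e-10). Cry1, whose protein closes the loop, spanned 7.39 to 8.38 after 9 h (median 7.76) and 6.73 to 7.91 after 6 h (median 7.12). Array 51 gave the overlap, since without the 16 arrays the 6 h mice ended at 7.27. The step of Cry1 was 0.64 (SE 0.15, adjusted p = 0.00404) and 0.68 without the 16 arrays (SE 0.09, adjusted p = 9.4e-07). Ciart (Chrono), which binds Arntl and represses it, had between 8.90 and 9.59 after 9 h (median 9.16) and between 8.20 and 8.83 after 6 h (median 8.54). Its step was 0.62 (SE 0.16, adjusted p = 0.00654) and 0.49 without the 16 arrays (SE 0.10, adjusted p = 0.00178). These 4 of the 12 repressors and Rev-erbs measured rose and 0 fell, against 1.58% and 3.54% of all genes. At the second share a list of 12 may hold no fall.

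The other 8 repressors, kinases and partners did not pass. Per1 had a step of 0.55 (SE 0.25, adjusted p = 0.117), and 0.16 without the 16 arrays. Nr1d2 (Rev-erb beta) lay between 10.21 and 10.40 after 9 h and between 8.32 and 10.13 after 6 h, and the 6 h mice other than arrays 51 and 74 lay between 9.90 and 10.13. Its groups did not overlap, but its step of 0.56 (SE 0.21) had an adjusted p of 0.056, and the step of 0.31 without the 16 arrays one of 0.0118. Cry2 had a step of 0.31 (adjusted p = 0.013) and Bhlhe41, an E-box repressor, one of 0.46 (adjusted p = 0.0728). Bhlhe40 had a step of 0.10 with all arrays and of -0.04 without the 16. Csnk1d and Csnk1e, kinases of the Per proteins, had steps of -0.01 and 0.08. Over the 18 genes of both lists 7 passed with all arrays and 7 without the 16, where 963 and 689 of all 18820 genes did. When only arrays 20, 51 and 74 were left out, with the other 13 doubted arrays still in the fit, 2 of the 18 passed.

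**Figure D1:**
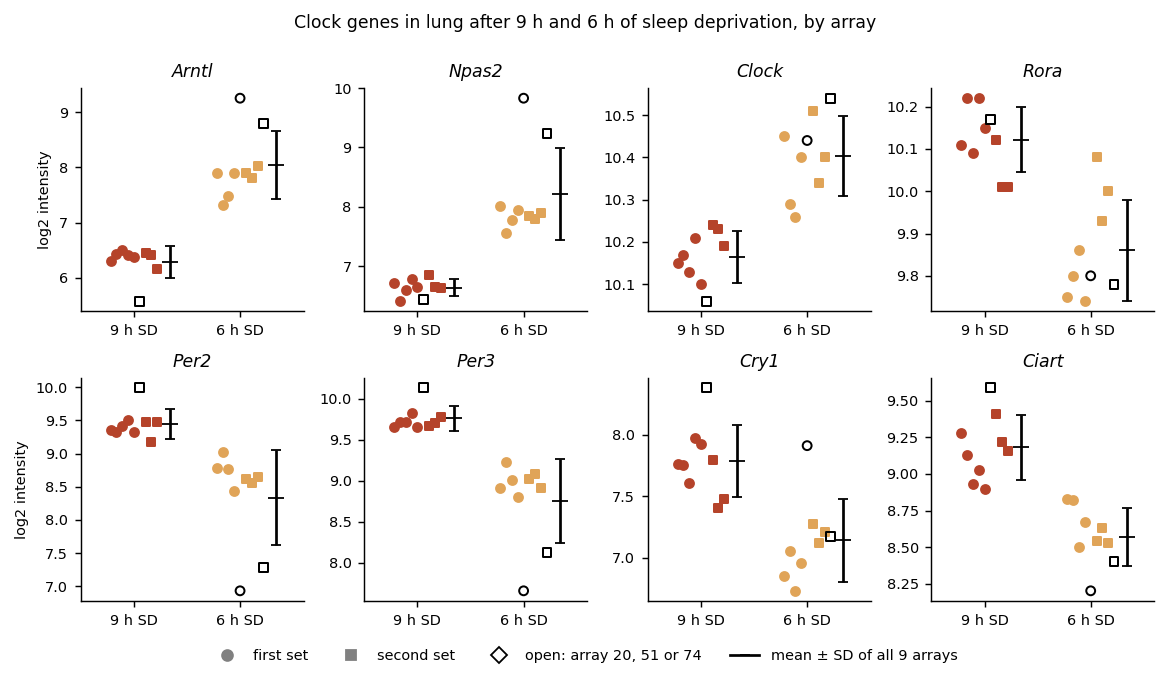
Log2 intensity (vertical axes) of 8 clock genes in each lung after 9 h and 6 h of sleep deprivation (horizontal axes). Circles are the first set, squares the second set, open symbols arrays 20, 51 and 74, and bars the mean ± SD of 9 arrays. Arntl lies at 5.58 to 6.50 after 9 h and 7.32 to 9.25 after 6 h, Per3 at 9.65 to 10.13 and 7.66 to 9.23, and the open symbols lie at the edge of their group in most panels.

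The promoters of 4 of these genes are shown because they carry the elements through which the loop is known to act. They are the 250 bases before and the first 50 bases after the RefSeq start (build GRCm38.p6), in lower case with motif matches in capitals. Both strands were searched for the E-box CACGTG, the D-box TTANGTAA and the Ror and Rev-erb element GTAGGTCA. No letters are shared between the matches.
Ciart (chr3:95882179-95882478, minus strand, E-boxes 116, 58 and 44 bases before the start): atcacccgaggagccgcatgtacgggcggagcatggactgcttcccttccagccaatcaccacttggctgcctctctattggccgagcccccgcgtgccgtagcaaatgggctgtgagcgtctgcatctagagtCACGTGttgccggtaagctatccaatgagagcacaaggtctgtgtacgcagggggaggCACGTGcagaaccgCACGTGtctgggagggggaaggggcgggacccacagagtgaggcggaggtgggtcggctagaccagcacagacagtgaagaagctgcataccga
Cry1 (chr10:85185005-85185304, minus strand, E-box 60 bases before the start): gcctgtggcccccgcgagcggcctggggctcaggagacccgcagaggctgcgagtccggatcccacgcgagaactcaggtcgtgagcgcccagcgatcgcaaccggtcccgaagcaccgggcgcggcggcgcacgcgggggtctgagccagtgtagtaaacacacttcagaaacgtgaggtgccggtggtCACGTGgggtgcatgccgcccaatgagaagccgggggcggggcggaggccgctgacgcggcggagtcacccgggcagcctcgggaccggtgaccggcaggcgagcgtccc
Per3 (chr4:151044616-151044915, minus strand, D-boxes 205 and 158 bases before the start): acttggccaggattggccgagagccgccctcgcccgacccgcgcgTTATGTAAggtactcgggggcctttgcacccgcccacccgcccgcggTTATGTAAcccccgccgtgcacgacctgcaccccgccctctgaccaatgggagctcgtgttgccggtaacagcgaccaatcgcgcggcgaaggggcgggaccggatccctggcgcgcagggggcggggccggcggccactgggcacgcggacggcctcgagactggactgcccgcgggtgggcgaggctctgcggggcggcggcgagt
Arntl (chr7:113207261-113207560, plus strand, the later of 2 annotated starts, Ror and Rev-erb element 29 bases after the start): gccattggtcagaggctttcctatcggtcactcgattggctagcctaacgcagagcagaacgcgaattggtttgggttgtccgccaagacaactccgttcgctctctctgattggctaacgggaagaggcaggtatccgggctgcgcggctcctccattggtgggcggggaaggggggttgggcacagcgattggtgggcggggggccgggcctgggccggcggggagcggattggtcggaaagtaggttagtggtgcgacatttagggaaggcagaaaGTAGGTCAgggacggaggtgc
Of 32851 RefSeq promoter windows of this length, 7.15% held the E-box, 2.32% the D-box and 0.621% the Ror and Rev-erb element. Of the 32 genes of the 3 clock lists that had a window, 9 held an E-box, 3 a D-box and 2 the Ror and Rev-erb element, the second being Nfil3. A gene with several windows was counted if any of them held the motif, whereas the percentages are shares of windows. Of the 9 genes with an E-box Ciart, Cry1 and Coq10b rose and the other 6 did not pass (Per1, Bhlhe41, Tef, Tspan4, Bcl6 and Lonrf3), while Hlf and Rora rose and Npas2 fell with none of the 3 elements in their windows. A match describes letters in the window and was not tested as a binding site.

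The output of the clock moved in both directions. Hlf, a D-box activator, lay between 8.86 and 9.18 after 9 h and between 7.56 and 8.58 after 6 h, without overlap. Its step was 0.83 (SE 0.17, adjusted p = 0.00102) and 0.65 without the 16 arrays (SE 0.06, adjusted p = 8.24e-12). Wee1, a kinase that holds cells before mitosis and a classical E-box target in liver, lay between 9.18 and 9.69 after 9 h and between 8.01 and 9.15 after 6 h, with a step of 0.69 (SE 0.15, adjusted p = 0.00206). Coq10b, a coenzyme Q-binding protein, rose by 0.30 (adjusted p = 0.00866, and 0.0103 without the 16 arrays). Leo1, a subunit of the Paf1 elongation complex, fell by 0.45 (adjusted p = 0.00238). Tef had a step of 0.56 (adjusted p = 0.0162). Of 15 output genes measured 3 rose and 1 fell, against 3 and 3 without the 16 arrays, where Tspan4 rose, Nfil3 and the cell cycle inhibitor Cdkn1a fell, and Coq10b did not pass. The shares of all genes were 1.58% higher and 3.54% lower, and 1.11% and 2.55% without the 16 arrays.

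The clock genes called above had steps of the same sign in both sets, of near size in some and further apart in others. Without the doubted arrays Arntl stepped by -1.25 in the first set and -1.57 in the second, Npas2 by -1.19 and -1.13, Per3 by 0.72 and 0.71, and Hlf by 0.70 and 0.57. Cry1 stepped by 0.91 and 0.35, Ciart by 0.35 and 0.70, and Rora by 0.37 and 0.04. With all arrays, Arntl, Npas2, Per3, Rora, Hlf, Wee1 and Leo1 passed in each of the 18 fits that left out 1 array of the comparison, Per2 and Cry1 in 17 (Per2 not without array 74, step 0.98, adjusted p = 0.0106, and Cry1 not without array 49, step 0.59, adjusted p = 0.0112). Ciart passed in 11 (adjusted p up to 0.0157) and Coq10b in 4 (up to 0.0256). With only arrays 20, 51 and 74 left out, Arntl and Cry1 passed. Npas2, Per2, Per3, Rora, Ciart, Hlf, Wee1, Leo1 and Coq10b then did not.

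Sleeping mice had steps of the same sign in most of these genes between these hours. In the undisturbed mice Arntl stepped by -1.37 and Npas2 by -1.08, against -1.75 and -1.57 in the deprived mice, and Per2 by 1.08 and Per3 by 0.85, against 1.11 and 1.01. Over the 18 genes of the activator and repressor lists the sign was the same in deprived and sleeping mice for 17, the exception being Csnk1d. The test of the difference between the steps (deprived minus sleeping) called 0 of these 18 genes, and for 17 its 95% interval held 0. The intervals were wide: -1.23 to 0.47 for Arntl and -0.70 to 0.77 for Per2. They narrowed without the 16 arrays to -0.51 to 0.21 for Arntl, -0.52 to 0.01 for Npas2, -0.49 to 0.12 for Per2 and -0.15 to 0.26 for Per3, and 13 of 18 held 0.

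Ciart was the exception. Without the 16 arrays it stepped by 0.49 (SE 0.10) in deprived mice and by 1.34 (SE 0.11) in sleeping mice, a difference of -0.85 (95% interval -1.14 to -0.56, adjusted p = 0.00442). Its other probe set had a difference of -0.92 (adjusted p = 0.00906). With all arrays the difference was -0.54 (interval -0.99 to -0.08, adjusted p = 0.245). For comparison, 9 of 35556 probe sets (0.0253%) were called in this test without the 16 arrays, and 1 with all arrays (6209 and 5530 at an unadjusted p under 0.05). Bhlhe41 had a difference of -0.50 (adjusted p = 0.0441) and Per1 one of -0.54 (adjusted p = 0.222) without the 16 arrays, neither past the threshold.

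**Figure D2:**
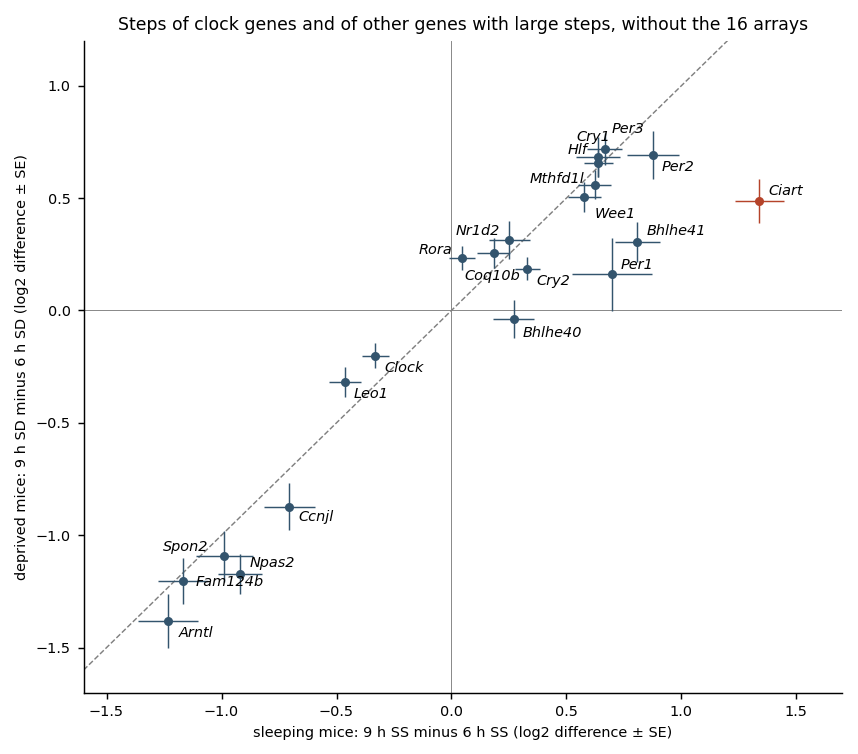
Step of deprived mice (9 h SD minus 6 h SD, vertical axis) against step of sleeping mice (9 h SS minus 6 h SS, horizontal axis), in log2 units ± SE, without the 16 arrays, with the line of equal steps dashed. Most genes lie near the line, from Arntl (-1.38 deprived, -1.23 sleeping) to Per3 (0.72, 0.67), and Ciart (red) lies below it at 0.49 and 1.34.

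Over the light phase the step from 6 to 9 h was part of a longer course. With the 16 arrays left out Arntl averaged 9.37 ± 0.09 at baseline (SD, n = 7), and 9.06 ± 0.20, 7.76 ± 0.26, 6.38 ± 0.11 and 6.65 ± 0.47 after 3, 6, 9 and 12 h of deprivation. Per2 averaged 7.25 ± 0.27 at baseline and 7.91, 8.69, 9.38 and 9.77 over the same hours. Arntl thus had its lowest mean at 9 h, whereas Per2 had its highest at 12 h. Ciart behaved otherwise in deprived mice, with means of 8.34 ± 0.27 at baseline and 8.82 ± 0.09, 8.64 ± 0.14, 9.13 ± 0.18 and 9.19 ± 0.28 after 3, 6, 9 and 12 h. In sleeping mice it averaged 7.85 ± 0.22, 8.46 ± 0.15, 9.79 ± 0.16 and 9.88 ± 0.19 at those hours. The deprived mice thus had more Ciart at 3 h and less at 9 h than the sleeping mice.

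**Figure D3:**
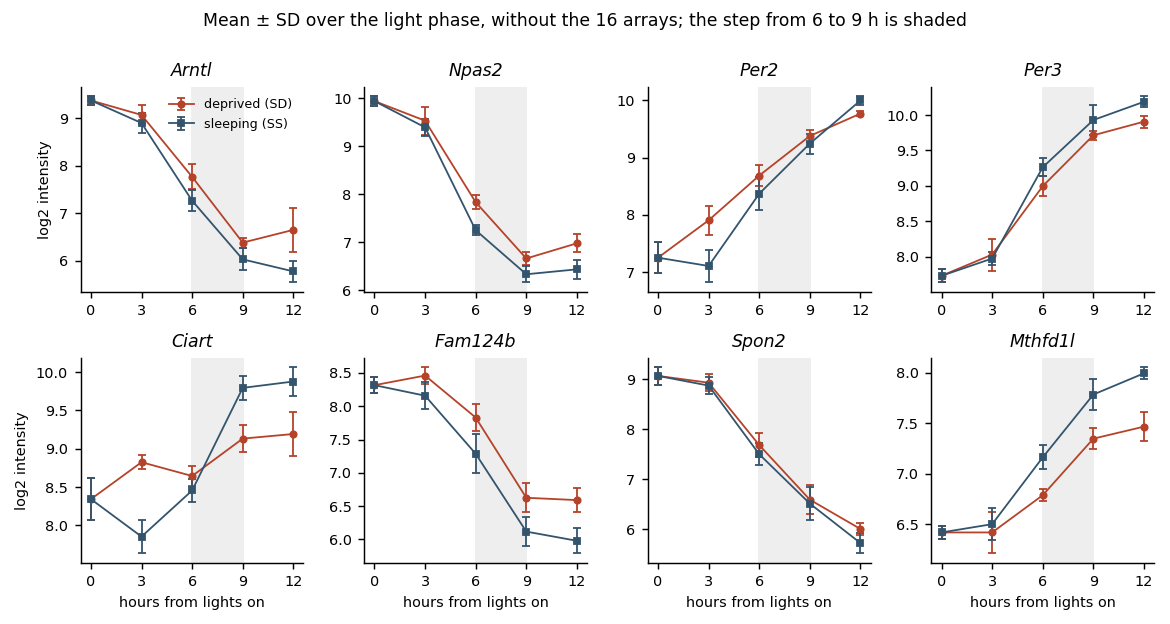
Mean log2 intensity ± SD (vertical axes) of 8 genes against hours from lights on (horizontal axes), without the 16 arrays, with deprived mice in red, sleeping mice in blue and the step from 6 to 9 h shaded. Arntl reaches 6.38 after 9 h of deprivation, against 7.76 after 6 h, and the lines of Ciart cross between 6 and 9 h, at 8.64 in deprived and 8.46 in sleeping mice at 6 h, and at 9.13 and 9.79 at 9 h.

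Outside the clock lists the largest falls were those of Fam124b, Spon2 and Ccnjl. Fam124b lay between 6.22 and 6.87 after 9 h (median 6.66) and between 7.43 and 8.43 after 6 h (median 7.92), without overlap. Its step of -1.35 (SE 0.18, adjusted p = 1e-05) was -1.30 in the first set and -1.40 in the second, and it passed in every alternative tried and in all 18 fits that left out 1 array. Spon2 (mindin), a secreted matrix protein with a part in innate immunity, lay between 5.98 and 6.94 after 9 h (median 6.59) and between 7.36 and 9.13 after 6 h (median 7.76). Its step was -1.47 (SE 0.28, adjusted p = 0.000534), and -1.09 without the 16 arrays (SE 0.11, adjusted p = 1.33e-09). Ccnjl, a cyclin-like gene, averaged 6.30 ± 0.18 after 9 h and 7.35 ± 0.40 after 6 h, a step of -1.05 (SE 0.17, adjusted p = 0.000162).

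Mthfd1l, a mitochondrial enzyme of one-carbon metabolism that makes formate, was higher after 9 h (7.22 to 7.92) than after 6 h (6.64 to 6.86), a step of 0.65 (SE 0.13, adjusted p = 0.0011). Tshr, the thyrotropin receptor, was low, at 4.88 to 5.49 after 9 h and 5.21 to 7.28 after 6 h. Its step of -0.85 (adjusted p = 0.00866) was -0.57 without the 16 arrays (adjusted p = 0.0664) and passed in 6 of 18 fits that left out 1 array. In sleeping mice these 5 genes stepped alike, by -1.21 (Fam124b), -1.32 (Spon2), -0.75 (Ccnjl), 0.61 (Mthfd1l) and -0.86 (Tshr), and the adjusted p of each difference between the steps was 0.588 or more.

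The remaining genes with the largest steps had larger steps in the first set than in the second, a difference that was not tested. Snord33, a small nucleolar RNA that guides methylation of ribosomal RNA, lay at 6.40 to 7.19 in the 5 first-set mice after 9 h and at 7.17 to 8.68 in the 4 second-set mice. After 6 h it lay at 7.90 to 8.95 in the first set and 7.62 to 8.32 in the second. Its step of -1.03 (SE 0.25, adjusted p = 0.00444) was thus -1.91 in the first set and 0.06 in the second. Snord47 (step -0.98) had -1.76 and 0.01, and Snord49b (step -0.98) had -1.72 and -0.07. Hspb1, a small heat shock protein, averaged 11.04 ± 0.42 after 9 h and 11.87 ± 0.44 after 6 h, a step of -0.83 (SE 0.19, adjusted p = 0.00326) that was -1.25 in the first set and -0.31 in the second. Olfr767, an olfactory receptor gene, had a step of 0.86 (adjusted p = 0.000648), 1.37 in the first set and 0.23 in the second. Srsy, a Y-linked gene with near-identical copies that the probes may not separate, had a step of 0.91 (adjusted p = 0.00168), 1.27 and 0.46. In sleeping mice the steps of these 6 genes lay between -0.22 and 0.03. All 6 also passed without the 16 arrays. Of them Olfr767 and Srsy averaged under 6 log2 intensity over all arrays, below the array medians of 6.45 to 6.78. They were thus not tested in the fit kept to a mean of 6 or more.

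Of the 10 largest rises 3 were genes of microRNAs, measured as the transcript at the locus, and their sequences show which share a seed (RefSeq, GRCm38.p6, bases 2 to 8 in capitals).
miR-30a-5p (chr1:23272274-23272295, plus strand): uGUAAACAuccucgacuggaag
miR-30c-5p (chr1:23291714-23291736, plus strand): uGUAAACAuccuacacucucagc
miR-224-5p (chrX:72261085-72261105, minus strand): uAAGUCACuagugguuccguu
The first pair, with the seed GUAAACA, come from neighbouring loci on chromosome 1. Mir30a lay between 8.21 and 9.09 after 9 h and between 7.41 and 8.39 after 6 h, with a step of 0.72 (SE 0.17, adjusted p = 0.00322). Mir30c-2 lay between 7.99 and 8.85 after 9 h and between 6.88 and 7.89 after 6 h, with a step of 0.75 (SE 0.17, adjusted p = 0.00238). Their steps without the 16 arrays were 0.53 (adjusted p = 0.0227) and 0.54 (adjusted p = 0.0154). Sleeping mice stepped by 0.71 and 0.67. Mir224, which also averaged under 6 over all arrays, had a step of 0.86 (SE 0.16, adjusted p = 0.000376). The step was 1.12 in the first set and 0.53 in the second, against 0.19 in sleeping mice. By class, 11 of 306 microRNA genes were higher (3.59%) and 0 lower, as were 47 (3.93%) and 0 of 1195 olfactory, vomeronasal and taste receptor genes. These classes had median levels of 4.91 and 3.71, against 7.9 for other named genes, of which 225 of 16500 were higher (1.36%) and 651 lower (3.95%). When the 16 arrays were left out 7 microRNA genes, 26 receptor genes and 167 other named genes were higher. Of 66 small nucleolar and other small RNAs 1 was higher and 6 lower (9.09%), against 1 and 8 without the 16 arrays, and the median step of this class was -0.11 in the first set and 0.03 in the second. In the receptor class the median step was 0.14 in the first set and 0.04 in the second.

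**Figure D4:**
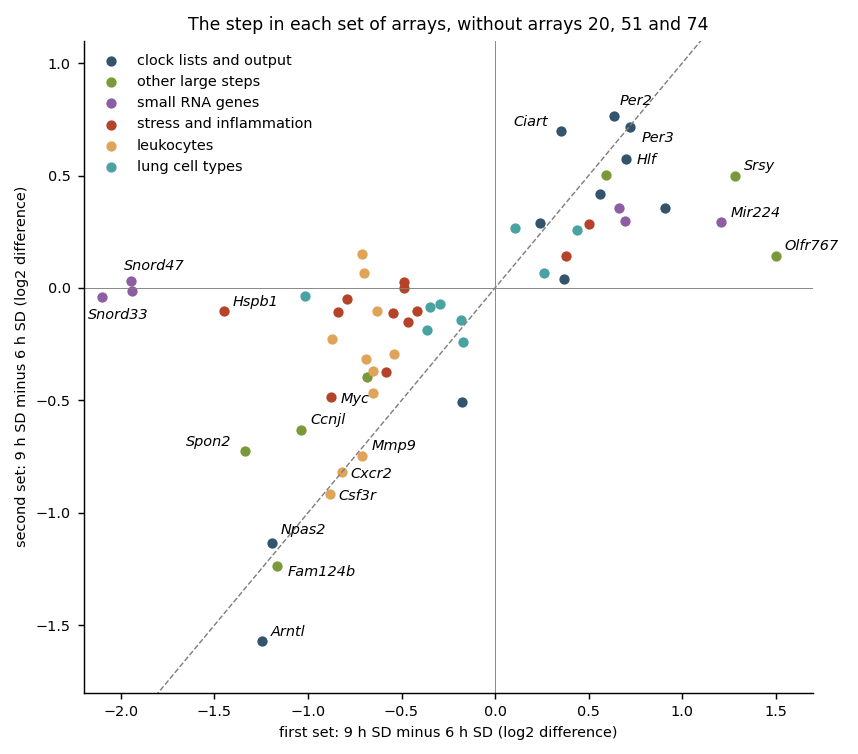
Step of the second set (vertical axis) against step of the first set (horizontal axis), as log2 differences of 9 h SD minus 6 h SD without arrays 20, 51 and 74, coloured by gene group, with the line of equal steps dashed. Arntl (-1.25 and -1.57), Npas2, Fam124b and Per3 lie near the line, whereas Snord33 (-2.10 and -0.04) and Hspb1 (-1.45 and -0.10) have far smaller steps in the second set.

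The leukocyte genes that passed were lower after 9 h, and more of them belonged to B cells than to any other list. Of 15 B cell genes 0 rose and 5 fell, and all 15 had a step below 0, with a median step of -0.61. Over all genes 1.58% were higher and 3.54% lower, and 9312 of 18820 had a step above 0. The same shares stand beside the counts of the lists that follow. Cd79a, a chain of the B cell receptor complex, lay between 8.30 and 9.02 after 9 h (median 8.78) and between 9.00 and 10.17 after 6 h (median 9.27), and its step was -0.74 (SE 0.20, adjusted p = 0.00924). Its partner chain Cd79b fell by 0.71 (adjusted p = 0.005), Ms4a1 (CD20) by 0.83 (adjusted p = 0.00783), Cd22 by 0.58 (adjusted p = 0.00989) and the B cell factor Spib by 0.82 (adjusted p = 0.00753). The highest 6 h values of Ms4a1, 9.08 and 8.61, were those of arrays 74 and 51. Without the 16 arrays 0 of the 15 passed, with a median step of -0.43 and, for Cd79a, a step of -0.54 (adjusted p = 0.0241). With all arrays Cd79b passed in 12 of the 18 fits that left out 1 array, Ms4a1 and Spib in 6, Cd79a in 4 and Cd22 in 3. The mean level of the list, relative to all arrays, was -0.96 to -0.35 after 9 h and -0.63 to 0.61 after 6 h. The median step was -0.61 in the first set and -0.62 in the second, against -0.18 in sleeping mice and 0.03 there without the 16 arrays. The difference of the steps did not pass for any of the 5 genes (adjusted p = 0.269 to 0.602).

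T cell genes had a median step of -0.28 and NK cell genes one of -0.32, and 0 of 14 and 0 of 12 passed in either direction. Cd3e, of the T cell receptor complex, had a step of -0.44 (adjusted p = 0.156), and Ncr1, an NK cell receptor, one of -0.60 (adjusted p = 0.0407). Among 15 neutrophil and monocyte genes Mmp9, a gelatinase of neutrophil granules, was lower, at 7.28 to 8.74 after 9 h and 7.77 to 9.10 after 6 h, with a step of -0.74 (SE 0.18, adjusted p = 0.00426). Array 20 alone gave the overlap, since the other 9 h mice lay between 7.28 and 7.50. When the 16 arrays were left out 3 of the 15 fell. They were Mmp9 (-0.72, adjusted p = 0.00136), the G-CSF receptor Csf3r (-0.91, adjusted p = 0.00012) and the chemokine receptor Cxcr2 (-0.84, adjusted p = 0.00149). Csf3r and Cxcr2 stepped by -0.88 and -0.82 in the first set and by -0.92 and -0.82 in the second without the doubted arrays. In sleeping mice they stepped by -0.17 and -0.24 without the 16 arrays, and the adjusted p of the difference was 0.0723 and 0.181. With all arrays neither passed (adjusted p = 0.0126 and 0.0486).

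Of 16 macrophage genes C1qc fell by 0.47 (adjusted p = 0.00482) and Cd68 by 0.38 (adjusted p = 0.00913), and of 12 platelet genes Gng11 fell by 0.36 (adjusted p = 0.00298) and Mpig6b by 0.51 (adjusted p = 0.00404). Of these 4 genes Gng11 alone passed without the 16 arrays. Of 9 genes of MHC class II presentation H2-DMa fell by 0.36 (adjusted p = 0.00995), with steps of -0.68 and 0.04 in the 2 sets, and did not pass without the 16 arrays (adjusted p = 0.0324). Genes of tissues that can be carried along with the lung varied widely between mice. The mean level of the liver list was -1.08 to 2.45 after 9 h and -0.74 to 2.68 after 6 h, and that of the skeletal muscle list -1.25 to 2.67 and -1.26 to 3.11. With both as covariates 170 genes were higher and 620 lower. Other such lists had median steps below 0, and their part in the leukocyte steps was not tested. Of 14 cardiac muscle genes 1 had a step above 0, with a median step of -0.35. Myl7, the atrial myosin light chain, fell by 0.73 (adjusted p = 0.00888), and Tnni3 (cardiac troponin I) had a step of -0.61 (adjusted p = 0.014). The mean level of that list was -0.41 to -0.11 after 9 h and -0.26 to 0.74 after 6 h. Of 16 genes of brown and white fat 0 had a step above 0 and 0 passed, with a median step of -0.42, against -0.74 in sleeping mice. Lipe, the hormone-sensitive lipase, had a step of -0.45 (adjusted p = 0.0166) in groups that did not overlap, and the adipokine gene Retn one of -0.74 (adjusted p = 0.0427). Of 9 mesothelium genes Wt1, a transcription factor of these cells, fell by 0.40 (adjusted p = 0.0046) and Lrrn4 by 0.42 (adjusted p = 0.00808). Of 5 erythroid genes 0 passed, and Alas2, an enzyme of heme synthesis, had a step of -0.47 (adjusted p = 0.0165). In these 4 lists 0 genes passed without the 16 arrays, and the median step was -0.25 for cardiac muscle, -0.20 for fat and -0.12 for mesothelium.

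**Figure D5:**
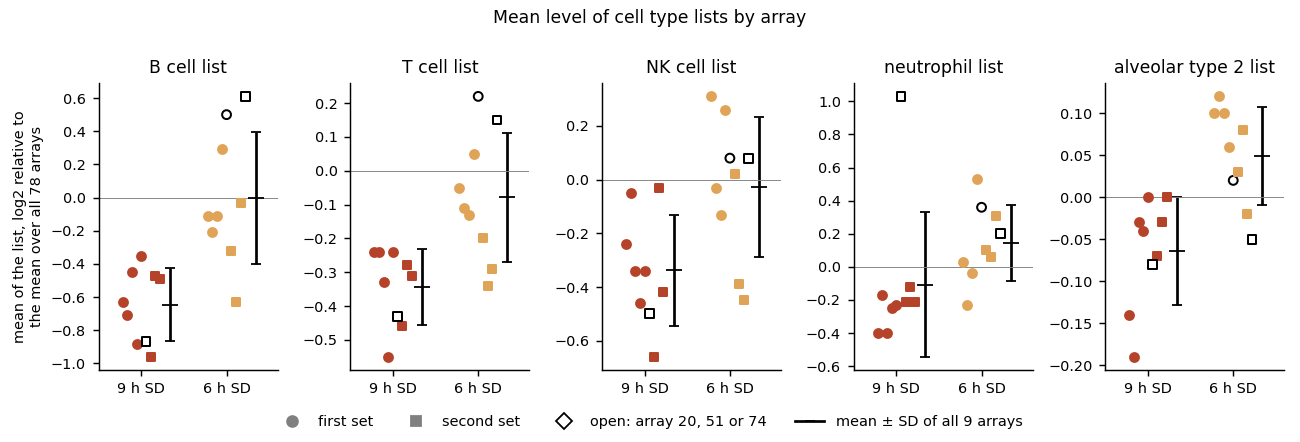
Mean log2 level of 5 cell type lists relative to the mean over all 78 arrays (vertical axes) in each lung after 9 h and 6 h of deprivation (horizontal axes). Circles are the first set, squares the second set, open symbols arrays 20, 51 and 74, and bars the mean ± SD of 9 arrays. The B cell list spans -0.96 to -0.35 after 9 h and -0.63 to 0.61 after 6 h, and array 20 stands alone at 1.03 in the neutrophil panel.

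Among the resident cells of the lung, 4 of 14 alveolar type 2 genes fell and 0 rose, with and without the 16 arrays. The median step of the list was -0.12, with -0.15 in the first set and -0.03 in the second, against 0.03 in sleeping mice. The shares of all genes that fell were 3.54% and 2.55%, and of those that rose 1.58% and 1.11%. Abca3, the transporter that loads surfactant lipid into lamellar bodies, lay between 10.81 and 11.04 after 9 h and between 11.08 and 11.25 after 6 h, without overlap, with a step of -0.22 (SE 0.05, adjusted p = 0.00281). Cxcl15 (lungkine) fell by 0.21 (adjusted p = 0.0064) and Napsa, a protease that matures surfactant protein, by 0.20 (adjusted p = 0.00675). Etv5 was counted through its second probe set, and its brightest had a step of -0.16 (adjusted p = 0.0254). In sleeping mice Abca3 and Cxcl15 stepped by -0.17 and -0.19, and Napsa by 0.10. Sftpc, the surfactant protein most used as a marker of these cells, had a step of 0.03 (adjusted p = 0.512). Of 20 endothelial genes the endothelin receptor Ednrb and the capillary carbonic anhydrase Car4 each rose by 0.15 (adjusted p = 0.00537 and 0.00652), and Car4 did not pass without the 16 arrays (step 0.11, adjusted p = 0.0483). Myh11, the myosin of smooth muscle, rose by 0.36 (SE 0.06, adjusted p = 5.06e-05), with 10.07 to 10.43 after 9 h and 9.84 to 10.09 after 6 h. Its steps were 0.45 and 0.25 in the 2 sets and 0.17 in sleeping mice. Of 10 alveolar type 1 genes 0 passed. Of 16 club and ciliated cell genes 0 passed with all arrays, and Cfap126, Foxj1 and Scgb1a1 fell without the 16 arrays. Scgb1a1, the club cell secretory protein, then had a step of -0.62 (adjusted p = 0.00328), of -1.01 in the first set and -0.03 in the second.

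The genes of acute stress and inflammation that passed were lower after the longer deprivation. Of 28 immediate early factors 0 rose and Atf3, Ier3, Jund and Myc fell. The median step was -0.17, with -0.22 in the first set and -0.08 in the second, against -0.09 in sleeping mice. Without the 16 arrays it was -0.14 in deprived and -0.16 in sleeping mice. Among all genes 1.58% rose and 3.54% fell. Myc, a driver of growth, lay between 7.04 and 7.49 after 9 h (median 7.29) and between 7.56 and 8.30 after 6 h (median 8.05), without overlap. Its step of -0.66 (SE 0.12, adjusted p = 0.000376) was -0.76 in the first set and -0.54 in the second, against -0.20 in sleeping mice (adjusted p of the difference 0.184). Ier3 fell by 0.32 (adjusted p = 0.00163), and Ier3 and Myc also passed without the 16 arrays, where Atf3 and Jund did not (adjusted p = 0.0855 and 0.0393). Of 29 chemokines and NF-kB targets Il1a, an interleukin 1, fell by 0.48 (SE 0.12, adjusted p = 0.00686), in groups that did not overlap (6.06 to 6.41 after 9 h, 6.55 to 7.06 after 6 h). Nfkbie, an inhibitor of NF-kB, fell by 0.40 (adjusted p = 0.00812). Without the 16 arrays Il1a, Il1b (-0.62) and Tnf (-0.38) fell and Nfkbie did not pass.

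Few heat shock and folding genes passed, and over all genes few did as well (1.58% higher and 3.54% lower). Of 22 DnaJ, Bag and small heat shock genes Hspb1 and Bag3 fell, the second by 0.30 (adjusted p = 0.00339), with -0.46 in the first set and -0.11 in the second. Of 11 Hsp70 and Hsp110 genes, 13 Hsp90 genes and co-chaperones and 10 CCT and Hsp60 genes 0 passed with all arrays. Hsp90aa1 had a step of -0.29 without the 16 arrays (adjusted p = 0.00683), and of -0.25 with them (adjusted p = 0.0323). Of 31 folding factors of the endoplasmic reticulum Dnajb9, an Hsp70 partner there, rose by 0.27 (adjusted p = 0.0092), against 0.04 in sleeping mice. Of 22 targets of Atf4 in the integrated stress response Atf3 and Aldh18a1, an enzyme of proline synthesis, fell, the second by 0.38 (adjusted p = 0.00422). Without the 16 arrays neither passed, and Nupr1, a stress-induced nuclear protein, fell by 0.26 (adjusted p = 0.00495). Of 30 genes of glutathione, thioredoxin and Nrf2 targets Hmox1 (heme oxygenase), Gstp1 and Gstm2 fell by 0.51, 0.49 and 0.28 (adjusted p = 0.00404, 0.00708 and 0.00257), and without the 16 arrays Hmox1 and Gstm2 passed and Gstp1 did not (adjusted p = 0.0142). Ifit3 alone of 26 interferon-induced genes rose, by 0.45 (SE 0.08, adjusted p = 0.000344), and it stepped by 0.60 in sleeping mice. Ndrg1 alone of 29 hypoxia and glycolysis genes fell, by 0.33 (adjusted p = 0.00268).

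Over all genes 1.58% were higher and 3.54% lower, shares at which a list of 8 to 31 genes may hold no call. Several programmes had no member past the threshold with all arrays. These were 24 glucocorticoid-induced genes (median step 0.09, with 15 above 0), 22 fasting and PPAR lipid genes (-0.15), 20 genes of cholesterol synthesis (-0.05), 8 of the hexosamine pathway (0.05) and 31 of the cell cycle (-0.03). The median of the glucocorticoid-induced genes without the 16 arrays was -0.08, with 8 above 0, Cdkn1a passed as lower, and the median of the cholesterol genes was 0.04. The members nearest the threshold in the lipid lists were Srebf2, a regulator of sterol synthesis (step -0.20, adjusted p = 0.0116), and the hormone gene Fgf21 (step 0.22, adjusted p = 0.0167). Fkbp5, a glucocorticoid-induced co-chaperone, spanned 9.21 to 10.43 after 9 h and 7.56 to 9.80 after 6 h, and its step of 0.80 had an adjusted p of 0.0534. The cold-inducible RNA-binding genes Rbm3 and Cirbp had steps of 0.20 and 0.25 (adjusted p = 0.172 and 0.291). When the 16 arrays were left out Rbm3 rose by 0.34 and 0.33 at its other probe sets 10358454 and 10603469 (adjusted p = 0.00267 and 0.00276), and its brightest had a step of 0.25 (adjusted p = 0.0153). Among 32 splicing factors 2 rose (Luc7l, by 0.29, and Tra2a through another probe set than its brightest) and 1 fell (Prpf8, by 0.15), and 28 had a step above 0, against 9312 of 18820 genes. None of these 3 passed without the 16 arrays, where Hnrnpd rose by 0.29 (adjusted p = 0.00852) and 26 of 32 had a step above 0. Among 33 ribosomal protein genes 2 rose and 2 fell, against 1 and 3 without the 16 arrays. Of 31 proteasome genes Psmd3 fell by 0.26 (adjusted p = 0.00789) and of 42 respiratory chain genes Uqcrc1 by 0.37 (adjusted p = 0.00547), and neither passed without the 16 arrays. Of 34 genes of ribosome biogenesis Gar1, of the pseudouridylation complex, rose by 0.40 (adjusted p = 0.00676), with 0.69 in the first set and 0.03 in the second, and Bop1 and Mybbp1a fell by 0.25 and 0.28 (adjusted p = 0.00426 and 0.00753). Of 33 matrix genes Col6a1, a collagen VI chain, rose by 0.25 (adjusted p = 0.00396) and Loxl1, a crosslinking oxidase, fell by 0.38 (adjusted p = 0.00908). Of these 5 genes Gar1 alone passed without the 16 arrays.

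Beyond Ciart, few genes passed in the test of the difference between the steps, which does not make the steps alike. Over all 35556 probe sets the steps of deprived and sleeping mice had a Pearson correlation of 0.18, and of -0.01 without the 16 arrays. At a looser adjusted p under 0.05 (limma), 9 probe sets differed with all arrays and 342 without the 16. With all arrays the 1 probe set called at 0.01 had no gene symbol (probe set 10341747, difference -1.03, adjusted p = 0.00103). Without the 16 arrays the named genes called were Ciart, Traf1, Tyrobp and Alox5ap. Alox5ap, the partner of 5-lipoxygenase in leukotriene synthesis, lay at 9.07 to 9.71 after 9 h and 9.36 to 9.60 after 6 h, with a step of -0.28 in deprived and 0.15 in sleeping mice without the 16 arrays (difference -0.42, adjusted p = 0.00906). Tyrobp, a signalling adaptor of myeloid and NK cells, had steps of -0.20 and 0.23 (difference -0.43, adjusted p = 0.00798). Traf1, an adaptor of TNF receptors, had steps of -0.28 and 0.15 (difference -0.43, adjusted p = 0.00798). With all arrays the differences of Psmf1, a proteasome regulator, and Arrdc1, an arrestin-domain protein, were -0.43 and -0.46 (adjusted p = 0.043 for both). On the other side Amy1, an amylase, had a step of 0.02 in deprived and -1.38 in sleeping mice (difference 1.40, adjusted p = 0.0509). Pank1, an enzyme of coenzyme A synthesis, had steps of 0.01 and -0.79 (difference 0.80, adjusted p = 0.067). This difference of the steps depended on the set: 68 probe sets were called in the first set alone and 576 in the second, where the 6 h SS group held 2 mice.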

How the data were processed

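RNA from the lung of each mouse was labelled with biotin and hybridised to its own Affymetrix Mouse Gene 1.0 ST array. The authors normalised all lung arrays together by RMA, and the deposited values are log2 intensities. In the deposited table these had lost their decimal point, which was restored, giving values of 2.27 to 13.85 and array medians of 6.45 to 6.78. Precision was set by how many mice a group held, since an array gives no read depth. The platform annotation gives 1 symbol for 21218 probe sets (18820 genes), several for 1881 and none for 12457, and only the first were named. A gene took its values from its brightest probe set and counted as called if 1 or more of its probe sets passed.

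A mean for each of 9 groups was fitted to 78 arrays in limma 3.58.1 (R 4.3.3), with 69 residual degrees of freedom, moderated variances and Benjamini-Hochberg adjustment over 35556 probe sets at 0.01. The contrasts were 9 h SD minus 6 h SD, 9 h SS minus 6 h SS, and their difference. Genes were chosen as the 10 largest called rises and falls, all members of both clock lists, the 4 smallest p in each other pathway list, the 2 smallest in each cell type list and the 5 smallest in each direction for the difference of the steps. Of the 172 genes so chosen the text prints those that passed and some others, and gives the rest by their list's counts. Further genes that passed in a list, or changed their call without the 16 arrays, were named after their values were seen. The comparison and the 45 gene lists were chosen with earlier results of these data known. Replicates were taken as separate mice. On simulated data with 200 changed probe sets, 78% of changes of 0.5 and 97% of changes of 1 were recovered, with 2 false calls among 35556 probe sets. These 2 false calls give no error rate for the real comparison, in which run and hour cannot be told apart. In the real data some steps over 0.5 missed the threshold, such as that of Fkbp5 (0.80, adjusted p = 0.0534 from limma). A gene that did not pass may thus still have changed. Alternatives were other sets of arrays, runs and sets as blocks, array weights, trended variances, a mean of 6 or more, median centring and, chosen after seeing the data, 1-symbol probe sets, liver and muscle covariates, and single sets without the 16 arrays. Promoter and microRNA sequences came from RefSeq tables (GRCm38.p6).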

Additional observations from a re-analysis of the deposited data

Results flagged for a closer look

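Within a group of 9 mice, a single array stood apart from the others (by Dixon's ratio at its 95% critical value) in 23 of 242 groups tested over 121 genes. Chance flags about 1 in 20 groups, and arrays 20, 51 and 74 gave most of the flags.

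Array 20, a 9 h SD mouse, was the highest of its group for Per2 (9.99, others 9.18 to 9.51), Per3 (10.13), Cry2 (10.14), Tef (10.05) and Mthfd1l (7.92), and the lowest for Arntl (5.58, others 6.16 to 6.50) and Acta2 (11.93). It was also the highest for genes of neutrophils and their mediators, Mmp9 (8.74, others 7.28 to 7.50), Csf3r (9.10), Cxcr2 (9.46), Il1b (8.43) and Alox5ap (9.71).

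Array 51, a 6 h SD mouse, was the highest of its group for Cry1 (7.91, others 6.73 to 7.27) and Prpf8 (11.29) and the lowest for Nr1d2 (8.32, others 9.55 to 10.13) and Csnk1e (11.09). Array 74 was the highest for Atf3 (8.99). The other flags were Myh11 in array 47 (10.09), Srsy in array 50 (5.49), Bag3 in array 71 (9.32) and Nupr1 in array 73 (10.19) after 6 h, and Ncr1 in array 22 (6.78) and Srebf2 in array 2 (9.83) after 9 h.

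The probe set 10341747, which has no symbol, differed between the steps of deprived and sleeping mice with all arrays (difference -1.03, adjusted p = 0.00103 from limma). Its mean was 4.06 after 9 h and 4.53 after 6 h of deprivation.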

How the results depend on the processing

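The count of genes higher and lower after 9 h (297 and 667) moved by over 1.5 times with only the 18 arrays of the comparison (190 higher), without arrays 20, 51 and 74 (114 and 291), with the 4 runs as a random block (168 and 438), with array weights (750 and 1357), with liver and skeletal muscle covariates (170 higher), in the first set alone (923 and 1393, or 1453 and 1738 without the 16 arrays) and in the second set alone (0 and 1, or 1 and 3 without them). Spon2, Abca3, Il1a, Bag3, Gng11 and Dnajb9 were among the genes that passed without the 16 arrays but not without arrays 20, 51 and 74 alone. Fits without 1 array gave 84 to 457 higher and 225 to 853 lower. Arrays whose absence moved a count by over 1.5 times were arrays 1 to 5 of 9 h SD (84 to 162 higher) and arrays 47, 48, 49, 71 and 74 of 6 h SD (181, 151, 163, 457 and 126 higher). The other settings stayed within 1.5 times, with 209 to 337 higher and 480 to 765 lower. A mean of 6 or more gave 74.1% lower calls among all calls and the main setting 69.2%.

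The 1 probe set of the difference of the steps became 2 without arrays 20, 51 and 74, with array weights and with median centring, 9 without the 16 arrays, 0 with a mean of 6 or more and with 1-symbol probe sets, 68 in the first set and 576 in the second (240 and 515 without the 16 arrays), and 1 to 3 without 1 array.

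Signs turned for Bhlhe40 without arrays 20, 51 and 74 (-0.04), without the 16 arrays (-0.04) and in the first set (-0.13, and -0.30 without the 16 arrays), for Sftpc in the same settings without arrays (-0.02 in both, and -0.04 in the first set), and for Csnk1d in the second set and without 1 array (0.00 to 0.01). In the second set they turned for Cfap126 (0.06), Scgb1a1 (0.05), Snord33 (0.06), Snord47 (0.01), H2-DMa (0.04), Hnrnpd (-0.02) and Cirbp (-0.02). In the second set without the 16 arrays they turned for Cd68 (0.07), Cfap126 (0.08), Cirbp (-0.11), Csnk1e (-0.01), Fkbp5 (-0.01), Gstm2 (0.03), H2-DMa (0.15), Snord47 (0.03), Aldh18a1 (0.02), Hnrnpd (-0.06), Lrrn4 (0.03), Tra2a (-0.01) and Uqcrc1 (0.06), and in the first set without them for Fbxl21 (0.06). The cause of these changes was not tested. No paired analysis was possible because replicate numbers only name the mice.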
